A study of Mus musculus with 67 samples.

Results

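The libraries described here are those of mouse intestinal organoids grown in the 8C condition from which a single component, epidermal growth factor (EGF), had been left out. They were chosen by their column labels alone and number 3 of the 67 bulk RNA-seq libraries of the series, of which 49 are of organoids and 18 of crypts. They were compared with 3 libraries of the full 8C condition, replicates 4 to 6 of 7, and with 3 libraries each in which bFGF, Pexmetinib or GSK3iXV had been left out instead. All of these organoids came from crypts of the mouse proximal small intestine and grew in Matrigel. The full 8C medium held 50 ng/mL EGF, 20 ng/mL bFGF (FGF2), 500 µM VPA (which blocks histone deacetylases), 2 µM EPZ6438 (which blocks EZH2, the enzyme that writes H3K27 methylation), 0.2 µM LDN193189 (an inhibitor of BMP type I receptors), 0.1 µM GSK3iXV (an inhibitor of the kinase GSK3, whose inhibition raises Wnt signaling), 1 µM Pexmetinib (an inhibitor of p38 MAP kinase) and 10% R-Spondin 1 conditioned medium. In the 8C -EGF condition the EGF dose was 0 and the other 7 doses were those of the full medium. Levels alone were also compared with 8C without VPA, without EPZ6438 and without both. The same was done with ENR medium (EGF, Noggin and R-Spondin 1) and with ENR to which VPA and EPZ6438 had been added. A figure legend of the study describes the omission experiment as done on several mice, without tying mice to single libraries. The p-values therefore measure only the spread between these libraries, which may be technical in part. The comparison asks which genes the organoids express differently when the medium gives them no EGF.

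EGF binds the receptor EGFR, a member of the ERBB family of receptor tyrosine kinases, and one of the pathways downstream runs through RAS, RAF and MEK to the kinase ERK. ERK induces immediate early transcription factors and a set of genes that dampen its own signal, among them dual-specificity phosphatases and Sprouty proteins. In the small intestine EGFR ligands come from mesenchyme and from Paneth cells, the secretory cells of the crypt base that also release lysozyme and alpha-defensins. EGF is a standard component of intestinal organoid media, where it sustains the division of crypt cells.

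Values are in TPM, which is scaled per transcript length and per library, so that levels of different genes can be set beside each other. TPM does not retain read numbers, so the depth of the libraries and the counting error are unknown. Fold changes are differences of means on the log2(TPM + 1) scale, coded as 8C -EGF minus the other condition, which understates the change of genes at low levels. The error after ± is the SD for TPM and the SE for a log2 fold change, with n = 3 libraries in each group. Gene positions are those of GENCODE vM21 on GRCm38. A gene was called when limma's adjusted p was under 0.05 and the change was at least 2-fold. The intestinal epithelial markers were present in all 6 libraries, with Epcam at 1629, 1627 and 1589 TPM in 8C and 1821, 1776 and 1755 TPM without EGF. The summed level of these 8 markers was lower without EGF, at 9473 to 10032 TPM beside 10425 to 13700 TPM in 8C, and 3 of the 8 were lower at the adjusted p alone, none at 2-fold. Of 9 immune cell markers 8 were under 2 TPM in all 6 libraries, and the summed level of the list was 7.41 to 16.9 TPM in 8C and 5.02 to 6.79 TPM without EGF. In bulk RNA, fewer cells of a type and less RNA per cell cannot be told apart.

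The choice of the full 8C libraries matters for what follows. Replicates 1 to 3 of the 8C condition differ from replicates 4 to 6 in 715 of 12755 genes tested, and replicates 4 to 6 show the same pattern of Xist and Y-linked expression as the 3 libraries without EGF. For this reason most groups of genes are also given against replicates 1 to 3, or against all 7 libraries of 8C.

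Removal of EGF was followed by a rise of Paneth cell antimicrobial genes and of the stem cell gene Olfm4, and by a fall of Dmbt1, Fabp1 and Ces2a. Of 12770 genes tested, 341 were called (2.67%), 93 of them higher (0.728%) and 248 lower (1.94%) without EGF. The number of called genes was 180 without 8C -EGF replicate 3, 195 without 8C -EGF replicate 1, 545 without 8C replicate 6, and 58 with all 7 libraries of 8C as controls. Of 61 called genes that met the rule for named genes, 27 were called in each of the 6 fits that left out 1 library, and 17 in 2 or fewer. At the adjusted p alone, whatever the size of the change, 750 genes were higher (5.87%) and 926 lower (7.25%). The 3 libraries without EGF lay above all of 8C replicates 4 to 6 in 2747 genes (21.5%) and below them in 2246 (17.6%). Against all 7 libraries of the 8C condition, the same was true of 691 genes above (5.41%) and 535 below (4.19%). The counts given below for gene lists are to be read beside these shares over all genes. Of the called genes, 62 of the 93 rises lay above all 7 libraries of 8C, whereas 67 of the 248 falls lay below all 7. With 8C replicates 1 to 3 as the controls, 86 of the 93 rises had a positive log2 fold change and 7 a negative one, while 143 of the 248 falls had a negative and 87 a positive one. Of the 341 called genes 323 were also tested against these controls. There 75 were called the same way and 9 the opposite way. Many of the falls thus depend on the set of 8C libraries, as the values given with each gene group show.

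Among called genes that averaged at least 5 TPM and whose groups did not overlap, predicted genes left out, the 12 largest rises were Olfm4, Sfrp5, Slc14a1 and 9 alpha-defensin genes. Of these, Sfrp5, Slc14a1, Defa29, Defa3 and Defa36 averaged under 5 TPM in 8C replicates 4 to 6 and met that level only through the libraries without EGF, so that their place among the largest rises is a description. Defa36 averaged 0.346 TPM there, and also met the minimum of 1 TPM for testing only through the libraries without EGF. Olfm4 (chr14:79984081-80023139), a secreted glycoprotein that marks crypt base stem cells, stood at 12.9, 6.57 and 17.1 TPM in 8C and 302, 1006 and 326 TPM without EGF. Every library without EGF was far above every library of 8C, and replicate 2 was the highest. The mean went from 12.2 ± 5.28 to 545 ± 399.7 TPM, a ratio of 44.8 and a log2 fold change of 5.23 ± 0.55 (adjusted p = 0.00756). Sfrp5 (chr19:42197971-42202252), a secreted inhibitor of Wnt ligands, rose from 0.664, 1.01 and 5.97 TPM to 48.1, 30.5 and 70.7 TPM, a log2 fold change of 4.07 ± 0.59 (adjusted p = 0.0137). Slc14a1, a urea transporter, rose from 1.20, 2.09 and 4.49 TPM to 41.7, 62.6 and 32.7 TPM, a log2 fold change of 3.75 ± 0.36 (adjusted p = 0.00333). All 3 genes lay above all 7 libraries of 8C, and against 8C replicates 1 to 3 their log2 fold changes were 3.76, 2.55 and 3.58. Olfm4 and Slc14a1 were called in all 6 fits that left out 1 library, and Sfrp5 in 2 of them, with adjusted p up to 0.0705. In a fit that pairs 8C -EGF number n with 8C number n + 3 as a block, Olfm4 was not called, with the same log2 fold change and an adjusted p of 0.0653.

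**Figure D1:**
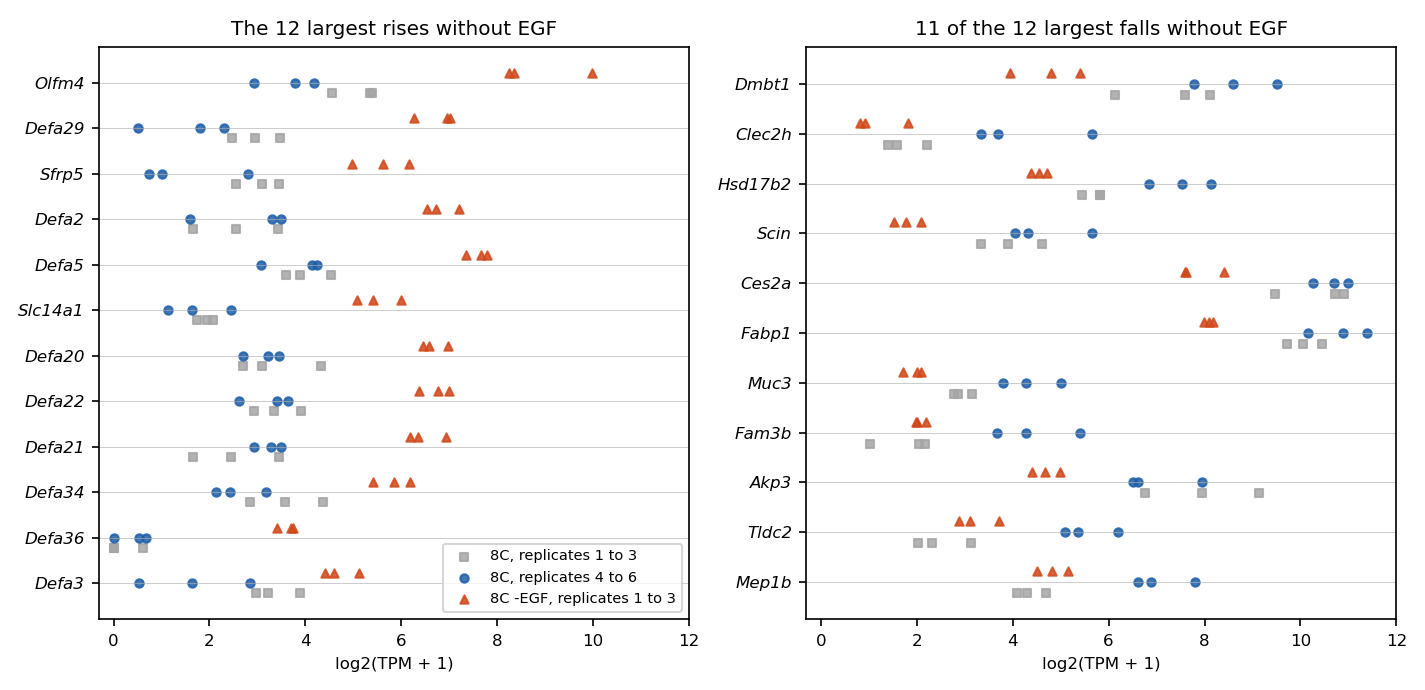
Level of the 12 genes with the largest rise (left) and 11 of the 12 with the largest fall (right) on the log2(TPM + 1) scale, with 1 point for each library: triangles for 8C -EGF, circles for 8C replicates 4 to 6 and squares for 8C replicates 1 to 3. All 12 rises, with Defa36 near 0 in the 8C libraries 4 to 6, separate from both sets of 8C libraries, whereas several falls, such as Fam3b, Tldc2 and Mep1b, separate from replicates 4 to 6 only.

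Dmbt1 (chr7:131032053-131121630), a secreted scavenger receptor glycoprotein, had the largest fall, with 724, 388 and 220.1 TPM in 8C and 26.8, 41.4 and 14.5 TPM without EGF and a log2 fold change of -3.91 ± 0.54 (adjusted p = 0.014). Fabp1 (chr6:71199827-71205023), the fatty acid binding protein of the proximal enterocyte, fell from 2676, 1908 and 1146 TPM to 287, 273 and 255 TPM, a 7.03-fold difference of means and a log2 fold change of -2.73 ± 0.28 (adjusted p = 0.00565). Ces2a (chr8:104734003-104741634), a carboxylesterase, fell from 2037, 1668 and 1230.2 TPM to 195, 339 and 192 TPM, a log2 fold change of -2.78 ± 0.27 (adjusted p = 0.00444). The libraries without EGF were close together for Fabp1 while the 8C libraries spread widely, and the groups did not overlap for any of the 3 genes. Hsd17b2, which oxidizes sex steroids, fell from 192 ± 82.6 to 22.6 ± 2.73 TPM, a log2 fold change of -2.95 ± 0.30 (adjusted p = 0.00442). Muc3, a transmembrane mucin, had a log2 fold change of -2.43 ± 0.28 (adjusted p = 0.00375), Scin, an actin-severing protein, one of -2.87 ± 0.40 (adjusted p = 0.00998) and Akp3, an intestinal alkaline phosphatase, one of -2.34 ± 0.39 (adjusted p = 0.0192). These 7 genes lay below all 7 libraries of 8C. Of the 12 largest falls, Clec2h, Scin, Muc3 and Fam3b averaged under 5 TPM without EGF and met that level only through the 8C libraries. Dmbt1, Scin and Akp3 were each called in 4 of the 6 fits that left out 1 library. Dmbt1 lost its call without 8C replicate 5 or without 8C -EGF replicate 1, and Scin and Akp3 lost theirs without 8C -EGF replicate 1 or 3.

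Clec2h, Fam3b, Tldc2 and Mep1b, also among the 12 largest falls, did not lie below every 8C library. Clec2h, a C-type lectin-like protein, stood at 49.3, 11.9 and 9.12 TPM in 8C and 0.902, 2.54 and 0.754 TPM without EGF, with a log2 fold change of -3.04 ± 0.62 (adjusted p = 0.0297). Fam3b, a secreted cytokine-like protein, Tldc2 and Mep1b, a metalloprotease of the brush border, had log2 fold changes of -2.40, -2.31 and -2.26 against replicates 4 to 6 and of 0.31, 0.74 and 0.47 against replicates 1 to 3. For these last 3 the direction depends on the 8C libraries chosen. Clec2h was called in 3 of the 6 fits that left out 1 library, and Fam3b and Mep1b in 4. With the replicate block Clec2h had an adjusted p of 0.0539.

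The genes of EGF signaling themselves showed few differences. Of 11 genes that encode EGF family ligands 5 were expressed enough to be tested, and none was called at 2-fold or at the adjusted p alone. The recombinant protein of the medium leaves no RNA, so the table holds no direct check of its removal. Egf mRNA was 0.717, 1.02 and 1.27 TPM in 8C and 0.948, 1.02 and 1.00 TPM without EGF, and it was not tested. Areg (amphiregulin), the most abundant ligand, was at 705, 538 and 400.1 TPM in 8C and 421, 347 and 388 TPM without EGF, a log2 fold change of -0.47 ± 0.19 (adjusted p = 0.133). Hbegf, the heparin-binding ligand, was at 205, 117 and 57.2 TPM in 8C and 161, 118 and 54.7 TPM without EGF, with groups that overlapped throughout. Tgfa (TGF-alpha) was at 21.7, 19.9 and 18.8 TPM in 8C and 18.6, 21.1 and 16.9 TPM without EGF, Btc (betacellulin) at 25.0, 18.6 and 19.7 TPM in 8C and 21.9, 25.3 and 19.0 TPM without EGF and Nrg2, a neuregulin, at 6.15, 7.50 and 5.35 TPM in 8C and 5.55, 3.35 and 3.01 TPM without EGF. The levels of Areg and Hbegf in 8C replicates 1 to 3 were far lower, at 48.9, 78.0 and 49.8 TPM and 20.5, 27.8 and 19.5 TPM, so that against those libraries both genes were called higher without EGF.

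Among the ERBB receptors, Egfr was at 9.90, 10.3 and 11.2 TPM in 8C and 8.58, 11.1 and 7.77 TPM without EGF, a log2 fold change of -0.19 ± 0.15 (adjusted p = 0.422). Erbb2, which binds no ligand of its own, was at 92.4, 76.4 and 67.2 TPM in 8C and 59.6, 63.4 and 53.8 TPM without EGF, a log2 fold change of -0.40 ± 0.13 (adjusted p = 0.0717). Erbb3, the neuregulin receptor, was at 151, 89.9 and 93.0 TPM in 8C and 68.0, 91.0 and 55.8 TPM without EGF, a log2 fold change of -0.62 ± 0.24 (adjusted p = 0.123). The means of all 3 were lower without EGF, only Erbb2 had groups that did not overlap, and none passed the test. Erbb4 was under 0.03 TPM in all 6 libraries. Of 13 regulators and adaptors of EGFR, including the inhibitor Lrig1 at 0.62 ± 0.18 and the feedback inhibitor Errfi1 at 0.04 ± 0.16 on the log2 scale, none was called at 2-fold or at the adjusted p alone.

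The kinases from RAS to ERK were nearly level between the conditions. None of 12 genes was called at 2-fold, with a median log2 fold change of -0.02 beside 0.04 over all genes tested. Mapk3, which encodes ERK1, was lower at the adjusted p alone, with 473, 387 and 332 TPM in 8C and 283, 281 and 272 TPM without EGF and a log2 fold change of -0.50 ± 0.12 (adjusted p = 0.0329). Map2k1, which encodes MEK1, had a log2 fold change of -0.20 ± 0.11 (adjusted p = 0.247). The Mapk3 libraries without EGF lay below all 7 libraries of 8C.

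Of 22 genes of ERK output and feedback 21 were tested, and 1 was called, Emp1. Their median log2 fold change was -0.06 against replicates 4 to 6 and 0.24 against replicates 1 to 3. Dusp6, the phosphatase that removes ERK phosphorylation, was at 84.6, 54.8 and 47.7 TPM in 8C and 42.5, 39.8 and 38.4 TPM without EGF, and its libraries without EGF lay below all 7 libraries of 8C, with a log2 fold change of -0.58 ± 0.19 (adjusted p = 0.0721) that did not pass. Sprouty genes moved little, with log2 fold changes of -0.12 ± 0.20 for Spry1, 0.23 ± 0.10 for Spry2 and 0.24 ± 0.19 for Spry4, and the groups overlapped for Spry1 and Spry4. The ETS factors Etv4 and Etv5 had log2 fold changes of -0.11 ± 0.11 and 0.07 ± 0.15, Myc one of -0.05 ± 0.08 and Ccnd1 (cyclin D1) one of -0.33 ± 0.14. Phlda1 was higher at the adjusted p alone, with 101, 121 and 144 TPM in 8C and 178, 154 and 176 TPM without EGF and a log2 fold change of 0.48 ± 0.13 (adjusted p = 0.0466).

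Emp1, an epithelial membrane protein, fell from 229.6, 126 and 130.3 TPM to 74.6, 89.5 and 61.7 TPM, a log2 fold change of -1.05 ± 0.24 (adjusted p = 0.0346). It was called in 1 of the 6 fits that left out 1 library, and against 8C replicates 1 to 3, at 54.1, 38.4 and 60.8 TPM, its log2 fold change was 0.56. Of the other members, Dusp4, Dusp5, Dusp7, Spred1, Spred2 and Ier3 had log2 fold changes between -0.10 and 0.31, Fosl1 one of 0.68 ± 0.25, and Spred3, Epha2, Epha4 and Plaur between -0.74 and -0.38. None of these passed the test.

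Immediate early genes leaned upward without EGF. Of 20 genes 17 had a positive log2 fold change, with a median of 0.46, and of 1.63 against 8C replicates 1 to 3. At the adjusted p alone 3 were higher and 1 lower, and 1 was called at 2-fold. Egr2, a zinc finger factor induced by growth factors, rose from 1.04, 2.46 and 1.62 TPM to 12.2, 9.19 and 6.89 TPM, a log2 fold change of 1.95 ± 0.25 (adjusted p = 0.00444), and lay above all 7 libraries of 8C. Jun, the core subunit of AP-1, was at 457, 436 and 341 TPM in 8C and 779, 673 and 529 TPM without EGF, a log2 fold change of 0.68 ± 0.16 (adjusted p = 0.0293). Ier2 was at 663, 771 and 637 TPM in 8C and 1397, 1124 and 1065 TPM without EGF, a log2 fold change of 0.79 ± 0.11 (adjusted p = 0.0069). Both lay above all 7 libraries of 8C, under the 2-fold limit. Egr1 was at 452, 483 and 401 TPM in 8C and 961, 945 and 538 TPM without EGF and Fos at 978, 944 and 542 TPM in 8C and 1472, 1295 and 711 TPM without EGF, with log2 fold changes of 0.83 ± 0.22 (adjusted p = 0.0511) and 0.48 ± 0.35 (adjusted p = 0.388). Ier5, added after its values had been seen, went the other way, from 75.3, 59.8 and 60.1 TPM to 38.5, 38.0 and 37.2 TPM (adjusted p = 0.0076). The groups overlapped for Fos and not for Egr1. In 8C replicate 7 Fos was 2113 TPM and Egr1 1043 TPM, each above every library without EGF.

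Most Paneth cell markers rose. Of 11 markers 9 were called higher without EGF and none lower, with a median log2 fold change of 2.06, and of 1.08 against 8C replicates 1 to 3. Lyz1 (chr10:117287797-117292868), the Paneth cell lysozyme, stood at 474, 489 and 466 TPM in 8C and 1399.6, 1855 and 1654 TPM without EGF. The mean went from 476 ± 11.5 to 1636 ± 228 TPM, a ratio of 3.43 and a log2 fold change of 1.77 ± 0.10 (adjusted p = 0.000165). In 8C replicates 1 to 3 it was 783, 916 and 633 TPM, so that every library without EGF exceeded every library of 8C. Itln1 (intelectin 1), a lectin that binds microbial glycans, went from 913, 915 and 832 TPM to 1803, 2074 and 2370.1 TPM, a log2 fold change of 1.22 ± 0.10 (adjusted p = 0.000568). Mptx2, a mucosal pentraxin, rose from 1.59, 0.808 and 2.31 TPM to 12.7, 21.3 and 14.3 TPM, a log2 fold change of 2.74 ± 0.25 (adjusted p = 0.00139), but not above every 8C library. Mmp7, the protease that activates alpha-defensins in mice, was at 158, 157 and 154 TPM in 8C and 181, 231 and 263 TPM without EGF, a log2 fold change of 0.51 ± 0.13 (adjusted p = 0.0372). Ang4, an antimicrobial ribonuclease, was at 299.9, 224 and 221 TPM in 8C and 212, 299.9 and 261 TPM without EGF with overlapping groups. Thus the 2 markers that were not called are Mmp7, higher at the adjusted p alone, and Ang4, at a log2 fold change of 0.05 ± 0.15.

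The alpha-defensins, small antimicrobial peptides of the Paneth cell granule, carried most of the largest rises. The table lists 22 genes named Defa with a number, and 17 were tested. Of these, 14 had a mean of at least 1 TPM in 8C replicates 4 to 6 alone, and all 14 were called higher. The other 3, Defa23, Defa35 and Defa36, reached the minimum level only through the libraries without EGF, so that their calls add nothing to this count. The list was drawn up after values had been seen. Summed over the 22 genes, the level was 1089.6, 773 and 682 TPM in 8C and 4216, 3665 and 4468 TPM without EGF. In 8C replicates 1 to 3 the sum was 891 to 1929.9 TPM, in 8C replicate 7 it was 163 TPM, and in the ENR condition (EGF, Noggin and R-Spondin 1) it was 9940.4 to 13724 TPM. The sums without EGF therefore lay above every 8C library and below every ENR library.

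The members differ in level and in the size of the rise. Defa24 was the most abundant, at 742, 507 and 444 TPM in 8C and 1939, 1816 and 1823 TPM without EGF, and had a log2 fold change of 1.75 ± 0.17 (adjusted p = 0.00301). Defa30 was at 186, 150.0 and 101 TPM in 8C and 1113, 867 and 1178 TPM without EGF, a log2 fold change of 2.88 ± 0.22 (adjusted p = 0.0016). Defa29 had the largest rise of the family, from 2.49, 0.421 and 3.96 TPM to 123, 76.2 and 129 TPM, a log2 fold change of 5.21 ± 0.47 (adjusted p = 0.00422). Of these 3 members, the most abundant rose by the smallest factor and the rarest by the largest. Defa2, Defa5, Defa20, Defa21, Defa22, Defa34, Defa36 and Defa3 had log2 fold changes of 3.03 to 4.02, and Defa17 one of 2.06 ± 0.15 (adjusted p = 0.000371). Defa20 was at 8.32, 5.54 and 9.91 TPM in 8C and 87.0, 94.4 and 124 TPM without EGF, a log2 fold change of 3.54 ± 0.20 (adjusted p = 0.000165). Of the 11 alpha-defensin genes named here other than Defa36, Defa2 and Defa3 lost their call in some of the fits that left out 1 library, and the other 9 were called in each. With the replicate numbers as a block, as described for Olfm4, Defa3 had an adjusted p of 0.0743.

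Copies of these genes are nearly identical, and the counting could have split or dropped reads that fit several copies, so the values of single members are uncertain. The genes lie together on chromosome 8. Promoters are shown to compare copies that rose, as RefSeq gives them for GRCm38.p6, the build of the deposited data. Each is the plus strand over the 130 bases that precede the transcription start, with the motif ATCAAAG (a TCF/LEF motif, the factors through which beta-catenin acts) and the motif TATAAA in capitals.
Defa20, chr8:21509128-21509257: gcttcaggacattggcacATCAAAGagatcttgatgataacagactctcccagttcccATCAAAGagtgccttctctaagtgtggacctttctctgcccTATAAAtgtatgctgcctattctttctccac
Defa21, chr8:21025415-21025544: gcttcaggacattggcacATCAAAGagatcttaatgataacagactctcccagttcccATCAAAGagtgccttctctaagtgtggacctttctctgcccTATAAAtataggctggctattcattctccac
Defa30, chr8:21134520-21134649: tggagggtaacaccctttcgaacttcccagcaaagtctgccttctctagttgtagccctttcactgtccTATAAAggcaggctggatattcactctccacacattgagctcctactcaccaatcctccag
The window of Defa2 (chr8:21378387-21378516) is the same as that of Defa20 at 130 of 130 positions, and the window of Defa22 (chr8:21162147-21162276) the same as that of Defa21. Defa20 and Defa21 agree at 125 of 130 positions. Within these windows Defa20 and Defa21 each hold the TCF/LEF motif in 2 places and Defa30 in none, while all 3 hold the TATAAA motif. TATAAA lies further upstream in the window of Defa30 than in the other 2. A motif that precedes it could therefore fall outside the window of Defa30.

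RefSeq promoter entries were found for 16 alpha-defensin genes, tested or not. The TCF/LEF motif, searched as ATCAAAG and on the other strand as CTTTGAT, was in 12 of the 16, in 2 places in 8 of them and in 1 place in 4. It was in 1.56% of 32851 promoter windows of the same length, and in 2 or more places in 0.0396%. TATAAA (or TTTATA) was in 15 of the 16 and in 6.83% of all windows. The copies share sequence by descent and are not independent. The windows of Olfm4, Sfrp5, Lyz1, Itln1, Mptx2 and Ang4 hold neither string of letters. A match is a description of these letters, not a measured site, and the counts depend on where each window starts.

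Olfm4 stood far apart from the other stem cell markers. Of 13 crypt base stem cell markers 2 were called higher, Olfm4 and Rgmb, 4 were higher at the adjusted p alone, and the median log2 fold change was 0.62 against replicates 4 to 6 and 0.10 against replicates 1 to 3. Rgmb, a BMP co-receptor, rose from 15.1, 28.7 and 41.6 TPM to 79.980, 113 and 73.4 TPM, a log2 fold change of 1.69 ± 0.35 (adjusted p = 0.0303), and was called in 2 of the 6 fits that left out 1 library, with adjusted p up to 0.10. Smoc2, a matricellular protein of the stem cell, was at 576, 790.4 and 883 TPM in 8C and 1229, 1234 and 1236 TPM without EGF, a log2 fold change of 0.74 ± 0.14 (adjusted p = 0.0169) under the 2-fold limit. In 8C replicates 1 to 3 Smoc2 was 1266, 1053 and 1286 TPM, as high as without EGF. Lgr5, the R-spondin receptor that defines these cells, was at 42.4, 50.6 and 63.8 TPM in 8C and 74.97, 92.4 and 73.7 TPM without EGF, a log2 fold change of 0.62 ± 0.16 (adjusted p = 0.0349), and Ascl2, a transcription factor of the same cells, at 27.2, 48.4 and 76.8 TPM in 8C and 86.0, 116 and 61.8 TPM without EGF, a log2 fold change of 0.85 ± 0.39 (adjusted p = 0.191). These last 2 genes lie outside the rule for named genes and were added after their values had been seen. Slc12a2, Cdca7 and Prom1 had log2 fold changes of 0.54 ± 0.25, 0.71 ± 0.25 and 0.00 ± 0.08, with overlapping groups. No slow-cycling stem cell marker among Bmi1, Hopx, Tert and Mex3a was called, and Bmi1 was higher at the adjusted p alone, with a log2 fold change of 0.49 ± 0.14 (adjusted p = 0.0487) that was -0.25 against replicates 1 to 3. The medians of these 4 genes were 0.29 against replicates 4 to 6 and -0.44 against replicates 1 to 3.

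Genes of Wnt feedback, which beta-catenin induces, leaned the same way. Of 12 genes 11 had a positive log2 fold change, 8 had groups that did not overlap, 6 lay above all 7 libraries of 8C, 5 passed at the adjusted p alone, and 1 was called. Over all genes tested 21.5% did not overlap upward, 5.41% lay above all 7 libraries and 5.87% were higher at the adjusted p alone. The median log2 fold change was 0.86, and 0.93 against 8C replicates 1 to 3. Nkd1, an inhibitor of Dishevelled, rose from 5.15, 11.2 and 13.4 TPM to 27.5, 19.7 and 42.7 TPM, a log2 fold change of 1.53 ± 0.38 (adjusted p = 0.0444) and was called in 1 of 6 fits that left out 1 library. Axin2, a scaffold of the beta-catenin destruction complex, was at 61.5, 98.2 and 135 TPM in 8C and 180.4, 249.4 and 155 TPM without EGF, a log2 fold change of 1.02 ± 0.30 (adjusted p = 0.0651). Sp5 was at 67.7, 105 and 144 TPM in 8C and 187, 187 and 199.9 TPM without EGF, a log2 fold change of 0.92 ± 0.24 (adjusted p = 0.0481). Both lay above every 8C library, Sp5 passed at the adjusted p alone and Axin2 did not pass. Rnf43 and Ephb2 had log2 fold changes of 0.14 ± 0.12 and -0.05 ± 0.13, with overlapping groups. GSK3iXV and R-Spondin 1 conditioned medium were at the same dose in both conditions.

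Some enteroendocrine markers were higher than in 8C replicates 4 to 6. All 16 tested had a positive log2 fold change, with a median of 0.78, 7 passed at the adjusted p alone and 1 at 2-fold. Gip, the incretin of K cells, rose from 74.2, 34.9 and 34.6 TPM to 145, 107 and 112 TPM, a log2 fold change of 1.401 ± 0.30 (adjusted p = 0.0286). Chgb, a granin of the secretory granule, was at 521, 516 and 471.8 TPM in 8C and 1072, 862 and 939 TPM without EGF, a log2 fold change of 0.92 ± 0.09 (adjusted p = 0.00179). Chga was at 122, 111 and 91.1 TPM in 8C and 257, 124 and 231 TPM without EGF and Ghrl (ghrelin) at 178, 107 and 132 TPM in 8C and 145, 159.9 and 169.7 TPM without EGF, and neither passed. With 8C replicates 1 to 3 as the controls the median was -0.32, Gip was at -0.40 and Chgb at -0.07, so the direction depends on the controls. Gip was called in 1 of the 6 fits that left out 1 library.

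Goblet cell markers were level or lower. Of 10 tested 1 was called lower and 3 passed downward at the adjusted p alone, with a median log2 fold change of -0.17 against replicates 4 to 6 and -1.09 against replicates 1 to 3. Agr2, a disulfide isomerase that folds mucins, fell from 700.4, 707 and 589 TPM to 297, 364 and 269 TPM, a log2 fold change of -1.11 ± 0.12 (adjusted p = 0.0027) and was called in every fit that left out 1 library. Muc2, the gel-forming mucin, was at 14.3, 14.9 and 11.9 TPM in 8C and 6.13, 9.93 and 8.03 TPM without EGF, a log2 fold change of -0.72 ± 0.17 (adjusted p = 0.032), and Fcgbp, which binds to it, had one of -0.59 ± 0.10 (adjusted p = 0.013). These 3 lay below all 7 libraries of 8C. Tff3 and Spink4 had log2 fold changes of -0.12 ± 0.07 and -0.09 ± 0.08. Of 6 tuft cell markers tested, all at low levels, none was called at 2-fold or at the adjusted p alone, although 4 lay above every 8C library, among them Pou2f3, the factor that specifies the lineage, at 5.97, 10.3 and 10.7 TPM in 8C and 12.8, 13.7 and 11.2 TPM without EGF.

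Enterocyte markers fell in part. Of 13 tested 4 were called lower, 6 passed downward at the adjusted p alone, and none was called higher, with medians of -0.66 against replicates 4 to 6 and -0.70 against replicates 1 to 3. Beside Fabp1, the called genes were Alpi, Rbp2 and Mttp. Alpi, intestinal alkaline phosphatase, fell from 487, 229 and 192 TPM to 71.5, 42.1 and 67.6 TPM, a log2 fold change of -2.22 ± 0.38 (adjusted p = 0.0198). Rbp2, the cellular retinol binding protein of the enterocyte, fell from 233, 103 and 76.7 TPM to 25.1, 43.2 and 34.0 TPM, a log2 fold change of -1.85 ± 0.41 (adjusted p = 0.0369). Mttp, which loads lipid onto lipoproteins, fell from 319, 199 and 170.2 TPM to 103, 116 and 90.1 TPM, a log2 fold change of -1.10 ± 0.22 (adjusted p = 0.0239). In these 3 genes 8C replicate 4 was the highest library, Alpi and Rbp2 lay below all 7 libraries of 8C, and the genes were called in 3, 2 and 2 of the 6 fits that left out 1 library. With the replicate block Rbp2 had an adjusted p of 0.135. The list did not move as a whole. Anpep (aminopeptidase N) was at 141, 190.0 and 211 TPM in 8C and 357, 220.4 and 435 TPM without EGF and the glucose transporter Slc5a1 at 263, 236 and 199.5 TPM in 8C and 147, 200.1 and 127 TPM without EGF, and neither passed. Fabp2 was lower at the adjusted p alone, with a log2 fold change of -0.66 ± 0.17 (adjusted p = 0.0443), but in 8C replicates 1 to 3 it was 265, 301 and 327 TPM, level with the libraries without EGF.

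**Figure D2:**
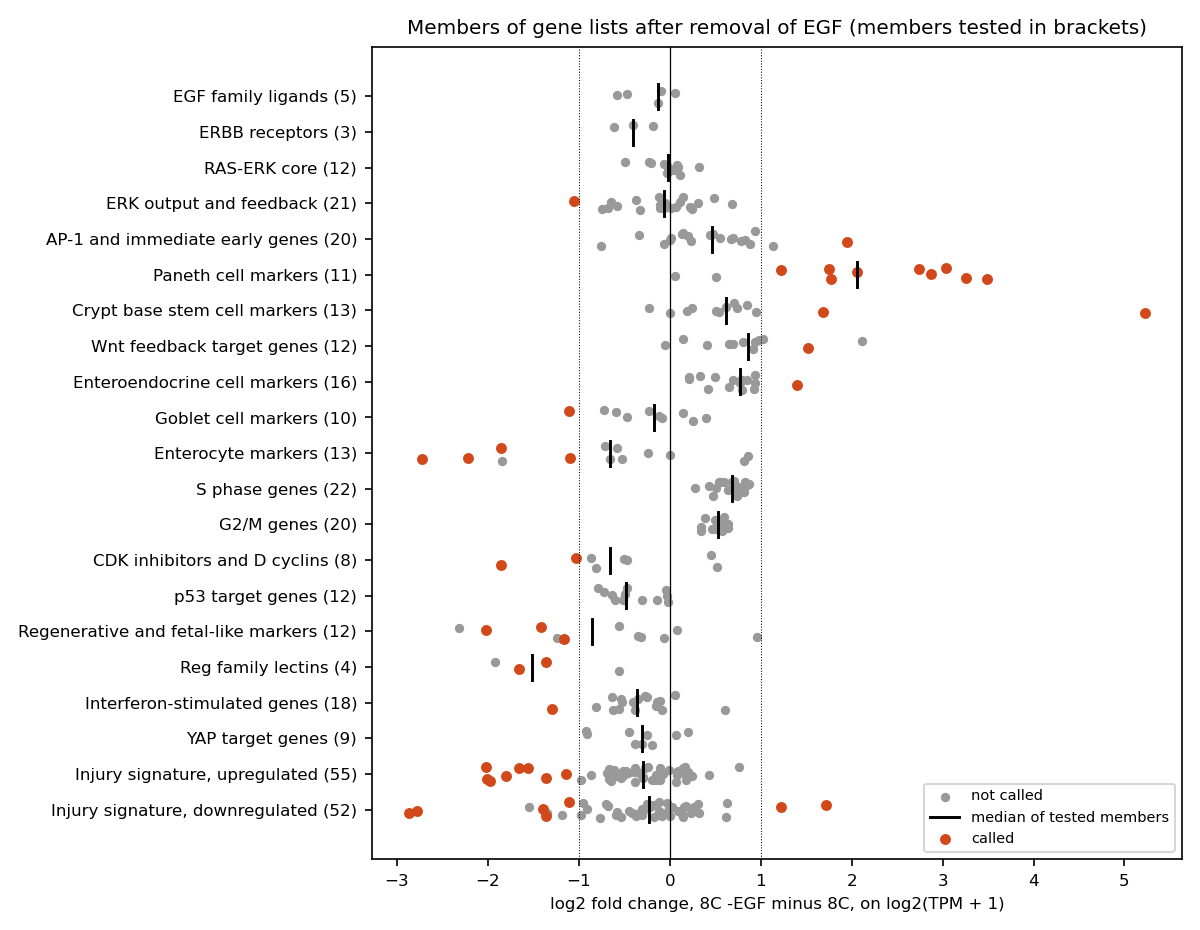
Log2 fold change of each tested gene, 8C -EGF minus 8C replicates 4 to 6 on the log2(TPM + 1) scale, by gene list, with the number of members tested in brackets. Each dot is a gene, orange where called at 2-fold and adjusted p, and the bar is the median of the list; of the lists plotted, Paneth cell markers have the highest median, 2.06, while EGF ligands, ERBB receptors and the RAS-ERK core hold no called gene.

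Cell cycle genes were modestly higher than in 8C replicates 4 to 6. No gene of the S phase or G2/M list was called at 2-fold. Of 22 S phase genes 17 were higher at the adjusted p alone, with a median log2 fold change of 0.69, and of 20 G2/M genes 16, with a median of 0.53. Mcm3, a subunit of the replicative helicase, was at 104, 147 and 167 TPM in 8C and 229, 237 and 221 TPM without EGF, a log2 fold change of 0.74 ± 0.16 (adjusted p = 0.0227). Pcna, the sliding clamp, was at 403, 475 and 529 TPM in 8C and 643, 645 and 659 TPM without EGF, a log2 fold change of 0.48 ± 0.10 (adjusted p = 0.0227). Plk1, a mitotic kinase, was at 96.8, 122 and 118 TPM in 8C and 166, 172 and 158 TPM without EGF, a log2 fold change of 0.56 ± 0.11 (adjusted p = 0.0171). For Mcm3 and Pcna the libraries without EGF were above all 7 libraries of 8C, and for Plk1 they were not, with a log2 fold change of -0.44 against replicates 1 to 3. In 8C replicate 4 the genes were lowest of the 3, as were Mcm6 and Mcm7. With 8C replicates 1 to 3 as the controls, the median of the S phase genes was 0.29 and that of the G2/M genes -0.18. In all, 10 of the 22 S phase genes and none of the G2/M genes lay above every 8C library.

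Of 8 CDK inhibitors and D cyclins 2 were called lower, Cdkn1a and Cdkn2a, and at the adjusted p alone 4 were lower and 1 higher. Cdkn1a, which encodes p21, fell from 433, 303 and 287 TPM to 176, 146 and 169.8 TPM, a log2 fold change of -1.03 ± 0.15 (adjusted p = 0.00756), and lay below all 7 libraries of 8C. It was called in 4 of the 6 fits that left out 1 library. Cdkn2a, which encodes p16 and p19, fell from 108, 125 and 105 TPM to 34.4, 16.6 and 48.6 TPM, a log2 fold change of -1.85 ± 0.35 (adjusted p = 0.0245), but in 8C replicates 1 to 3 it was 12.5, 97.3 and 16.1 TPM, and it was called in 3 of the 6 fits. Ccnd2 (cyclin D2), a partner of CDK4 and CDK6, was at 336, 309 and 314 TPM in 8C and 186, 205 and 139 TPM without EGF, a log2 fold change of -0.87 ± 0.14 (adjusted p = 0.00853) just under 2-fold, but in 8C replicates 1 to 3 it was 197, 124 and 248 TPM, which overlaps the libraries without EGF. Cdkn2c, another inhibitor of these kinases, was higher at the adjusted p alone, with a log2 fold change of 0.52 ± 0.11 (adjusted p = 0.0235) that was -0.13 against replicates 1 to 3. All 12 targets of p53 had a negative log2 fold change, with a median of -0.48, and 7 were lower at the adjusted p alone, none at 2-fold. Ccng1 (cyclin G1) was at 230.3, 206 and 185 TPM in 8C and 123, 114 and 119.6 TPM without EGF, a log2 fold change of -0.79 ± 0.10 (adjusted p = 0.00444). Perp, a desmosome protein that p53 induces, had one of -0.47 ± 0.08 (adjusted p = 0.00997), and Phlda3 one of -0.72 ± 0.12 (adjusted p = 0.00953) that was 0.05 against replicates 1 to 3. Ccng1 and Perp lay below all 7 libraries of 8C. The median of the p53 targets against 8C replicates 1 to 3 was -0.02.

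Some genes of regeneration and injury were lower than in 8C replicates 4 to 6, but not than in replicates 1 to 3. Of 12 regenerative and fetal-like markers 3 were called lower, Ly6a, Anxa1 and Il33, and none higher. Ly6a, which encodes SCA1, fell from 811, 482 and 403 TPM to 123, 141 and 132 TPM, a log2 fold change of -2.02 ± 0.24 (adjusted p = 0.00569). In 8C replicates 1 to 3 it was 62.6, 104 and 61.0 TPM and in replicate 7 853 TPM, so that the libraries without EGF lay between the sets. Anxa1 (annexin A1) fell from 152, 69.8 and 76.5 TPM to 34.9, 32.1 and 36.2 TPM, a log2 fold change of -1.42 ± 0.27 (adjusted p = 0.0233), and Il33, an alarmin, had one of -1.16 ± 0.29 (adjusted p = 0.038). Clu (clusterin), a marker of revival stem cells, was at 127, 56.2 and 40.6 TPM in 8C and 79.8, 16.6 and 66.5 TPM without EGF, a log2 fold change of -0.56 ± 0.73 (adjusted p = 0.646) with overlapping groups. Sprr1a was at 173, 55.2 and 68.1 TPM in 8C and 96.6, 81.8 and 97.0 TPM without EGF and did not pass. The median of the list was -0.86, but 0.50 against 8C replicates 1 to 3, and Ly6a, Anxa1 and Il33 were at 0.84, 0.26 and 0.86. Ly6a was called in all 6 fits that left out 1 library, Anxa1 in 3 and Il33 in 1.

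Reg3b and Reg3g, antibacterial lectins of the epithelium, were the called members among 4 Reg family lectins. Reg3g fell from 2327, 1688 and 1372 TPM to 599.6, 592 and 485 TPM, a log2 fold change of -1.65 ± 0.19 (adjusted p = 0.00548), and Reg3b from 2945, 1831 and 1749 TPM to 905, 841 and 723 TPM, a log2 fold change of -1.37 ± 0.20 (adjusted p = 0.0113). In 8C replicates 1 to 3 Reg3g was 468, 482 and 395 TPM, and against them the log2 fold changes were 0.32 for Reg3g and 0.40 for Reg3b. Reg1 was at 338, 80.002 and 88.7 TPM in 8C and 37.8, 40.3 and 27.3 TPM without EGF, below all 7 libraries of 8C but with a log2 fold change of -1.92 ± 0.57 (adjusted p = 0.0776) that did not pass.

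The study's injury-associated signature, built on published injury data outside these libraries, holds 63 genes that rise and 54 that fall on injury. Of 55 rising genes tested 8 were called lower without EGF and none higher, with a median log2 fold change of -0.30. The called genes were C3, Capg, Lrg1, Ly6a, Reg3b, Reg3g, Trim15 and Trim40. Lrg1, a secreted leucine-rich glycoprotein, fell from 32.5, 38.5 and 30.2 TPM to 9.04, 8.27 and 5.77 TPM, a log2 fold change of -2.01 ± 0.17 (adjusted p = 0.000712), yet in 8C replicates 1 to 3 it was 1.03, 2.00 and 1.18 TPM. Capg, an actin capping protein, fell from 18.8, 7.78 and 7.17 TPM to 1.93, 2.15 and 1.54 TPM, a log2 fold change of -1.97 ± 0.31 (adjusted p = 0.00998), and was the single called gene of the 8 that lay below all 7 libraries of 8C. C3 (complement C3) had log2 fold changes of -1.14 against replicates 4 to 6 and 0.80 against replicates 1 to 3, and was called in 1 of the 6 fits. Of 52 falling genes tested 2 were called higher, Itln1 and Clps, and 5 lower, Ces2a, Ces2c, Cmbl, Gde1 and Scin. Of the 5, Ces2c and Gde1 were called in 1 of the 6 fits that left out 1 library, Scin in 4 and Cmbl in 5. With the replicate block Ces2c and Gde1 had adjusted p-values of 0.086 and 0.0552. Clps, the colipase, rose from 117, 118 and 117 TPM to 424, 313 and 444 TPM, a log2 fold change of 1.72 ± 0.13 (adjusted p = 0.000441). Cmbl, a hydrolase, went from -1.10 against replicates 4 to 6 to 0.68 against replicates 1 to 3. The members of this signature thus moved both ways, and the medians against replicates 1 to 3 were 0.17 for the rising and 0.04 for the falling genes.

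Interferon, chemokine and antigen presentation genes gave few calls. Of 18 interferon-stimulated genes 1 was called, Irf7, with 19.3, 7.59 and 9.21 TPM in 8C and 3.48, 4.33 and 4.08 TPM without EGF and a log2 fold change of -1.29 ± 0.29 (adjusted p = 0.0264), and 5 were lower at the adjusted p alone. Among 12 chemokine and NF-kB genes, Cxcl10 was called higher, from 0.897, 1.24 and 1.95 TPM to 4.75, 3.05 and 4.62 TPM (adjusted p = 0.0183), and lay above all 7 libraries of 8C. Cxcl16 and Il18 were called lower, at log2 fold changes of -1.004 ± 0.24 and -1.77 ± 0.34. Against 8C replicates 1 to 3, Irf7, Cxcl16 and Il18 were at 0.29, 0.34 and 1.59. Of the fits that left out 1 library, Irf7, Cxcl10 and Il18 were each called in 2 of 6 and Cxcl16 in 1. Of 5 MHC class II genes none was called at 2-fold, and H2-Ab1 and H2-DMb1 were lower at the adjusted p alone, with log2 fold changes of -0.64 ± 0.09 (adjusted p = 0.00722) and -0.84 ± 0.23 (adjusted p = 0.0445). Each of these 2 was higher than in 8C replicates 1 to 3, at 0.89 and 1.64.

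Other called genes came from lists of the medium's growth factor pathways and of other cells. Fgf15, the intestinal hormone that bile acids induce, was at 3.88, 1.33 and 1.02 TPM in 8C and 0, 0.187 and 0.0607 TPM without EGF, a log2 fold change of -1.396 ± 0.32 (adjusted p = 0.0266) at levels near the floor of the scale. It met the minimum of 1 TPM only through the 8C libraries, where it is high, and it was called in 1 of 5 fits that left out 1 library. None of the FGF receptors was called, with Fgfr2 at 0.49 ± 0.20 and Fgfr4 at 0.32 ± 0.18. Vim (vimentin), an intermediate filament protein listed here as a stromal marker, rose from 16.9, 18.6 and 26.8 TPM to 101, 56.7 and 140.1 TPM, a log2 fold change of 2.14 ± 0.33 (adjusted p = 0.0137), above all 7 libraries of 8C. It lost its call without 8C -EGF replicate 1 or 8C replicate 4, with adjusted p up to 0.0591. The other 8 stromal and endothelial markers were under 2 TPM in all 6 libraries, with a summed level of 1.37 to 1.73 TPM in 8C and 1.31 to 1.97 TPM without EGF. Of 15 genes of ATF4 and the amino acid response 8 were higher at the adjusted p alone, none at 2-fold, and Atf4 was at 403, 421 and 444 TPM in 8C and 558, 554 and 540.0 TPM without EGF, a log2 fold change of 0.38 ± 0.07 (adjusted p = 0.0167). Hes1, the effector of Notch, was at 53.3, 70.2 and 77.6 TPM in 8C and 97.5, 94.1 and 108 TPM without EGF, a log2 fold change of 0.58 ± 0.14 (adjusted p = 0.0312), above all 7 libraries of 8C. Id1, a target of BMP signaling, which LDN193189 blocks in both media, was at 62.0, 32.1 and 22.1 TPM in 8C and 16.9, 15.6 and 16.6 TPM without EGF, below all 7 libraries of 8C, with a log2 fold change of -1.07 ± 0.33 (adjusted p = 0.0739) that did not pass. Egln3, an oxygen-sensing prolyl hydroxylase, fell short of 2-fold, with 570.5, 404 and 324 TPM in 8C and 214, 208 and 219.6 TPM without EGF and a log2 fold change of -0.97 ± 0.18 (adjusted p = 0.016). Genes of cholesterol synthesis, fatty acid synthesis, glycolysis, FoxO and YAP targets, BMP, Notch and ribosome biogenesis held no called member, with median log2 fold changes between -0.31 and 0.35.

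The removal of EGF was then set directly against the removal of other components. All 3 contrasts use the same libraries without EGF, so they are not independent of each other, and no 8C library enters them. Against 8C -bFGF, 235 of 12748 genes were called (1.84%), 80 higher (0.628%) and 155 lower (1.22%). Against 8C -Pex, from which Pexmetinib was left out, 430 of 12784 were called (3.36%), 142 higher (1.11%) and 288 lower (2.25%). Against 8C -GSK3i, from which GSK3iXV was left out, 589 of 12707 were called (4.64%), 206 higher (1.62%) and 383 lower (3.01%). Without 8C -EGF replicate 3 or 1 the calls against 8C -bFGF were 79 or 95, and those against 8C -Pex 271 or 281. Leaving out 8C -bFGF replicate 1 or 2 gave 133 or 365 calls. Olfm4, Sfrp5, Slc14a1 and Defa29 were among the 5 largest rises, and Dmbt1 and Clec2h among the 5 largest falls, in each of the 3 contrasts. Against 8C -bFGF, Clec2h was called in 3 of the 6 fits that left out 1 library, Sfrp5 in 4 and Defa29 in 5, with adjusted p up to 0.138, 0.0859 and 0.0602.

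Olfm4 stood at 3.19, 12.7 and 20.2 TPM without bFGF, 7.81, 19.7 and 43.4 TPM without Pexmetinib and 5.46, 23.4 and 33.6 TPM without GSK3iXV. The log2 fold changes of 8C -EGF against these conditions were 5.44 ± 0.76 (adjusted p = 0.027), 4.53 ± 0.65 (adjusted p = 0.00801) and 4.72 ± 0.81 (adjusted p = 0.0144). It was called in 3, 5 and 4 of the 6 fits that left out 1 library, with adjusted p up to 0.123, 0.0816 and 0.0677. Lyz1 was 446, 652 and 576 TPM without bFGF, and its log2 fold changes were 1.56 ± 0.15 (adjusted p = 0.00273), 1.48 ± 0.18 (adjusted p = 0.00323) and 1.81 ± 0.12 (adjusted p = 7.06e-05). Of 11 Paneth cell markers, 8 were called higher than without bFGF, 6 higher and 1 lower than without Pexmetinib, and 7 higher than without GSK3iXV, with medians of 1.81, 1.48 and 1.81. Olfm4, Lyz1 and most Paneth cell markers were thus higher without EGF than without each of the other 3 components.

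Ces2a, Fabp1 and Dmbt1 were called lower in each of the 3 contrasts, whereas Akp3, Rbp2 and Mttp were not called against 8C -bFGF. Akp3 narrowly missed there, at -2.05 ± 0.44 (adjusted p = 0.0511) with groups that did not overlap. Ces2a was 2211, 1490.1 and 1612 TPM without bFGF, 1199, 852 and 862 TPM without Pexmetinib and 2202, 2137 and 1888 TPM without GSK3iXV, all above the 195, 339 and 192 TPM without EGF. Fabp1 had log2 fold changes of -2.39 ± 0.28 (adjusted p = 0.00974), -2.98 ± 0.31 (adjusted p = 0.00205) and -3.77 ± 0.10 (adjusted p = 6.07e-07). Dmbt1 had -3.70, -4.27 and -4.72, and against 8C -bFGF it was called in 2 of the 6 fits that left out 1 library, with adjusted p up to 0.182. The enterocyte list gave 2 lower calls of 13 against 8C -bFGF, 5 against 8C -Pex and 9 against 8C -GSK3i, where 1 was called higher. Cyp2b10, a cytochrome P450, was 201, 65.0 and 35.9 TPM without Pexmetinib and 125, 80.3 and 65.5 TPM without GSK3iXV, beside 3.04, 8.68 and 3.69 TPM without EGF. Aqp5, a water channel, was 16.5, 22.5 and 28.0 TPM without GSK3iXV and 0.235, 1.43 and 0.0715 TPM without EGF, a log2 fold change of -3.95 ± 0.31 (adjusted p = 0.000137), and it met the minimum of 1 TPM only through the libraries without GSK3iXV. Full 8C lay between them, with Aqp5 at 4.08, 4.86 and 4.01 TPM.

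Some of the genes whose direction depended on the choice of 8C libraries are given here in the contrasts that use none. They are Ly6a, Reg3g, Lrg1, Emp1 and Cdkn2a. Beside them stand Vim, Egr2 and Jun, which lay above all 7 libraries of 8C. These contrasts share the libraries without EGF, and they do not settle the difference between the sets of 8C libraries. Ly6a had log2 fold changes of -2.02 ± 0.23 (adjusted p = 0.00698), -1.31 ± 0.32 (adjusted p = 0.0437) and -1.31 ± 0.16 (adjusted p = 0.00101), and Reg3g of -1.63 ± 0.18 (adjusted p = 0.00574), -1.76 ± 0.18 (adjusted p = 0.00175) and -1.44 ± 0.13 (adjusted p = 0.000349). Lrg1 was lower in each, at -1.47, -1.56 and -2.07. Emp1 was called against 8C -bFGF, at -1.04, and just under 2-fold against the others, at -0.90 and -0.97. Cdkn2a was called against 8C -Pex and 8C -GSK3i and missed against 8C -bFGF, at -1.57 ± 0.35 (adjusted p = 0.053). The log2 fold changes of these 5 genes were negative in each contrast. Not every regenerative or injury gene went this way. Of 12 regenerative and fetal-like markers, 2 were called lower against 8C -bFGF and 4 against 8C -Pex, with none higher. Against 8C -GSK3i 2 were called lower and 2 higher. Of the signature genes that rise on injury, 1 was called higher against 8C -Pex and 1 against 8C -GSK3i, beside 7 and 9 lower. Vim was higher in each, at 2.13, 1.82 and 2.51, and Egr2 at 1.80, 1.56 and 2.29. Jun was called against 8C -Pex, at 1.13, and 8C -GSK3i, at 1.18, and not against 8C -bFGF, at 0.83.

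**Figure D3:**
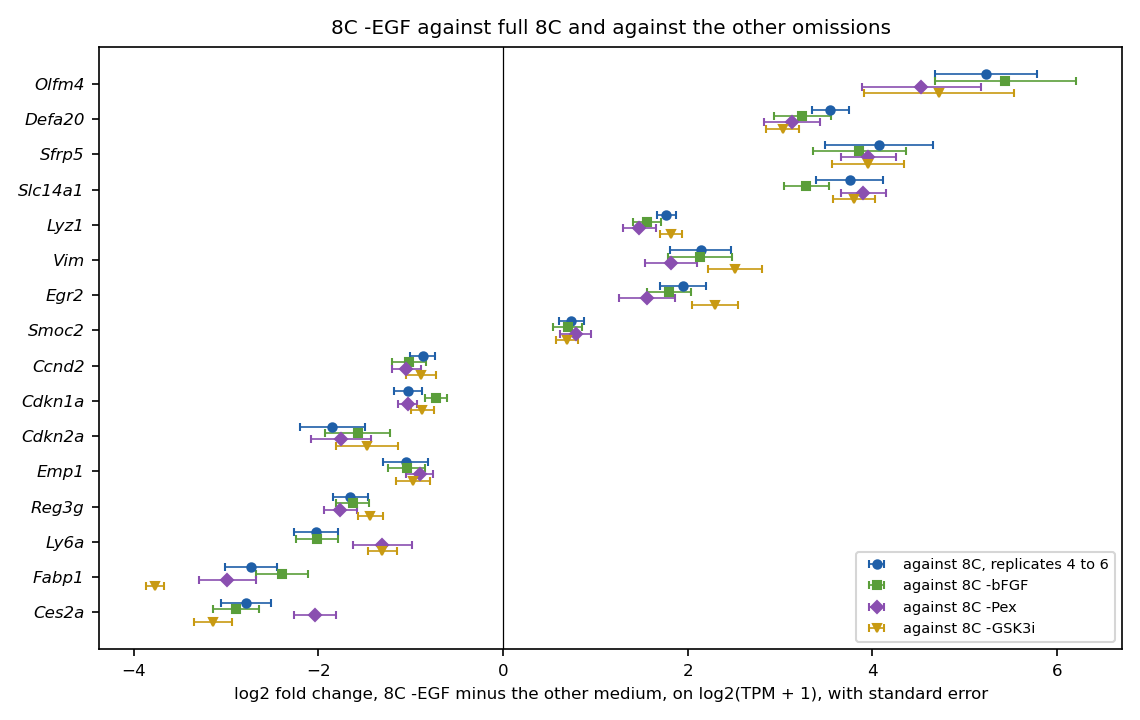
Log2 fold change with its SE of 16 genes in 8C -EGF against full 8C (replicates 4 to 6), 8C -bFGF, 8C -Pex and 8C -GSK3i, on the log2(TPM + 1) scale. The 4 estimates of a gene lie on the same side of 0 throughout, with Olfm4 between 4.53 and 5.44 and Fabp1 between -3.77 and -2.39.

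The counts for the secretory lineages differed with the omission set beside 8C -EGF, a difference that was not itself tested. Against 8C -Pex, all 10 goblet cell markers tested were called lower without EGF, with a median log2 fold change of -1.66, and 6 of 19 enteroendocrine and 6 of 9 tuft cell markers were called lower too. Against 8C -bFGF the goblet list gave 1 lower call and the tuft list none, and 2 of 16 enteroendocrine markers were called higher. Against 8C -GSK3i 5 of 10 goblet and 1 of 8 tuft cell markers were called lower, and no enteroendocrine marker was called. Ifitm1, an interferon-induced membrane protein, was among the largest rises against 8C -Pex and 8C -GSK3i, at 74.8, 10.7 and 188 TPM without EGF and 0, 0.265 and 0.553 TPM without GSK3iXV. Against 8C -GSK3i it met the minimum of 1 TPM only through the libraries without EGF. Its libraries without EGF spread widely, it was called in 1 and 2 of the 6 fits that left out 1 library, and against full 8C its log2 fold change of 2.90 ± 1.30 (adjusted p = 0.206) did not pass.

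Levels across the organoid media place the change on a wider range, as a description without a test. Olfm4 ranged over 302 to 1006 TPM without EGF, 6.57 to 41.1 TPM in 8C, 228 to 624 TPM without VPA, 241 to 1559 TPM without EPZ6438, 682 to 1713 TPM without VPA and EPZ6438, and 1591 to 2856 TPM in ENR. Lyz1 ranged over 1399.6 to 1855 TPM without EGF, 365 to 916 TPM in 8C, 1443 to 2974 TPM without VPA, 1141 to 1639.7 TPM without EPZ6438 and 1765 to 3500.5 TPM in ENR. In 8C -EGF, Olfm4 thus lay between 8C and ENR and overlapped the media without VPA or EPZ6438, and Lyz1 lay above 8C and overlapped ENR. Sfrp5 was different, at 30.5 to 70.7 TPM without EGF and 4.48 to 55.2 TPM in ENR but 1.52 to 3.58 TPM without VPA and EPZ6438. Slc14a1 was at 32.7 to 62.6 TPM without EGF, 3.62 to 51.0 TPM without EPZ6438 and 0.426 to 4.26 TPM in ENR.

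Fabp1, Ces2a and Dmbt1 were lower without EGF than in every library of the other 9 media. Fabp1 was at 255 to 287 TPM, while the lowest library of any other medium had 512 TPM, in 8C -VE. Ces2a was at 192 to 339 TPM, and the lowest library of any other medium had 362 TPM, in 8C -E. For Dmbt1 the range was 14.5 to 41.4 TPM, below a lowest value elsewhere of 69.5 TPM, in 8C. Reg3g was at 485 to 599.6 TPM without EGF, 59.8 to 409 TPM without VPA, 8.84 to 74.7 TPM without VPA and EPZ6438 and 27.7 to 45.6 TPM in ENR, so that without EGF it lay within the range of 8C and above ENR. Its range without EGF overlapped those of 8C without EPZ6438, at 11.2 to 642 TPM, and of ENR with VPA and EPZ6438, at 448 to 505 TPM. Ly6a was at 123 to 141 TPM without EGF and 2.46 to 16.5 TPM in ENR.

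**Figure D4:**
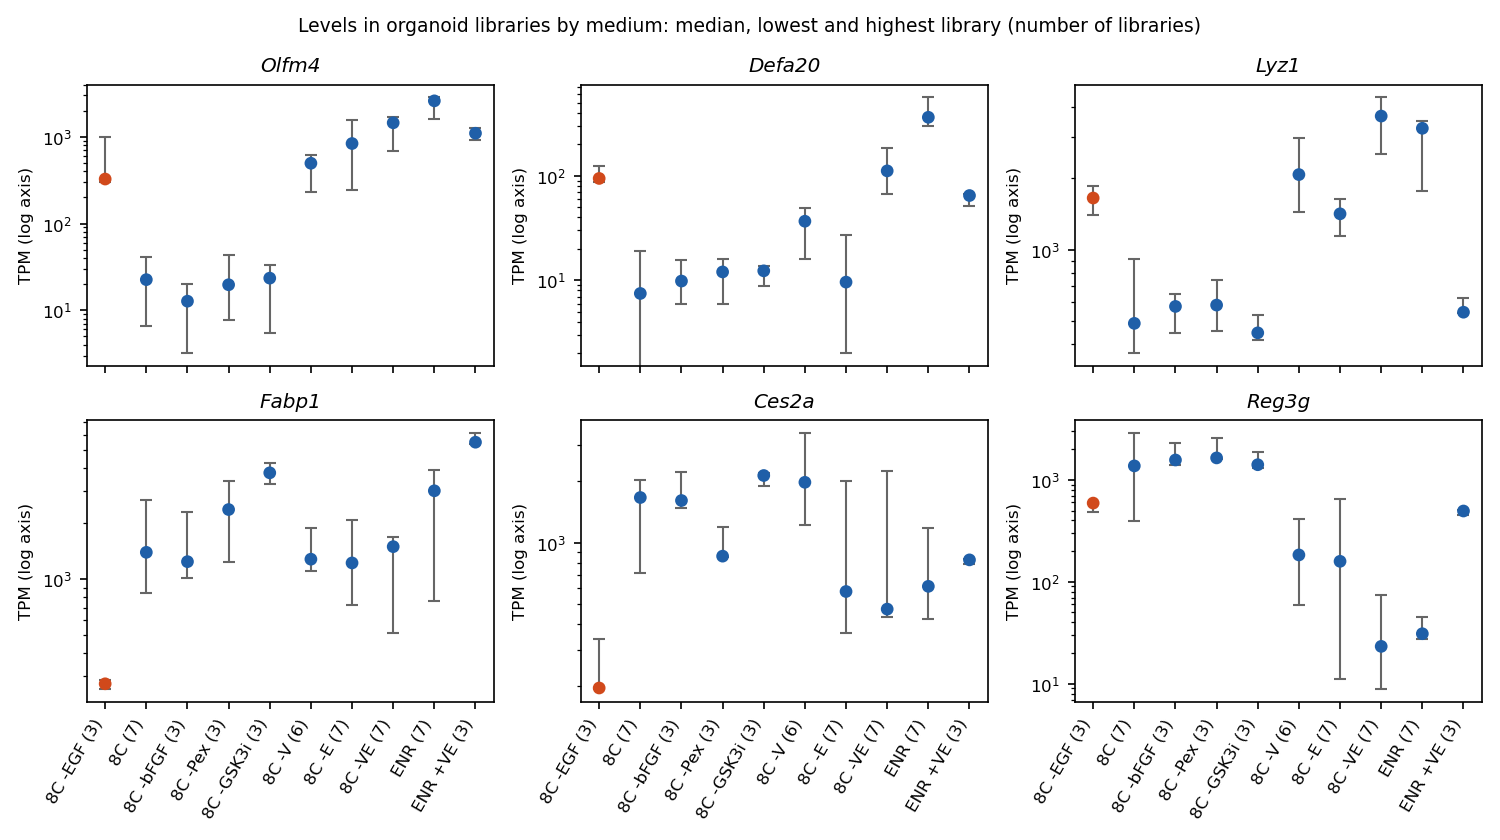
Level in TPM, on a log axis, of 6 genes in 10 organoid media, with the number of libraries in brackets; points are medians and bars run from the lowest to the highest library (for Defa20 in 8C the lowest is 0 and lies below the axis). Olfm4, Defa20 and Lyz1 in 8C -EGF (orange) lie above all 8C libraries, Fabp1 and Ces2a below every other medium, and Reg3g within the range of the 8C libraries.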

How the data were processed

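Organoid RNA was sequenced by the authors as 2 x 150 bp reads from an unstranded kit, trimmed with Trimmomatic 0.39, aligned to mm10 with STAR 2.7.3a and counted with featureCounts, whose version and treatment of reads that fit several places are not given in the sources used here. The deposited table holds the authors' TPM values for 29579 genes, with replicates kept apart. They were used as deposited, and no counts or depths were given with them.

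In each comparison of 6 libraries, genes whose mean reached 1 TPM entered the test on log2(TPM + 1) with limma 3.58.1 (lmFit and eBayes with trend and robust, R 4.3.3), with Benjamini-Hochberg adjustment over all genes tested, and called at adjusted p under 0.05 and at least 2-fold. The test was run on simulated data with 200 changed genes. Named genes were the 12 largest rises and falls among called genes that averaged 5 TPM or more, did not overlap and were not predicted genes, all tested EGF ligands, ERBB receptors and ERK output genes, the called members of every other list with up to 4 further members of the highest level, and the 5 largest rises and falls of each direct contrast. Results for some of these genes are not reported here. The members and lists were chosen with earlier results of these data known. Alternatives covered the pseudocount, normalization, filters, variance model, replicate block, 8C libraries used and each replicate left out. Figures were drawn with matplotlib 3.10.9. The crypt libraries were not used here.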

Additional observations from a re-analysis of the deposited data

Results flagged for a closer look

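The removal of EGF and the removal of the other components differed by direct test, in which each gene's 3 libraries without EGF were set against the 3 libraries of another omission. In limma, 235 genes were called between 8C -EGF and 8C -bFGF, 430 between 8C -EGF and 8C -Pex, and 589 between 8C -EGF and 8C -GSK3i. The libraries without EGF are shared by these contrasts, and the counts are not independent of each other.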

How the results depend on the processing

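Against 8C replicates 4 to 6, the count of called genes (341) ran from 240 to 453 under 9 alternatives for the pseudocount, normalization, mitochondrial genes, minimum level, variance model, length trend and number of groups in the fit. It was 1676 with no minimum fold, where 44.7% of calls were higher in place of 27.3%. It was 180 to 545 with 1 library left out (180 without 8C -EGF replicate 3, 195 without 8C -EGF replicate 1, 545 without 8C replicate 6). The choice of 8C libraries changed both the count and the share of rises: all 7 as controls gave 58 calls (60.3% higher) and replicates 1 to 3 gave 453 (51.7% higher). The cause was not tested. With replicates 1 to 3 as controls, the log2 fold change changed sign in 23 named genes that were called in at least 1 of both fits: Anxa1 (0.26), Areg (2.72), C3 (0.80), Cdkn2a (0.15), Cmbl (0.68), Cxcl16 (0.34), Emp1 (0.56), Fam3b (0.31), Gip (-0.40), H2-DMb1 (1.64), Hbegf (2.13), Ier3 (1.08), Il18 (1.59), Il1rn (1.61), Il33 (0.86), Irf7 (0.29), Lrg1 (1.86), Ly6a (0.84), Mep1b (0.47), Reg3b (0.40), Reg3g (0.32), Reg4 (-1.48) and Tldc2 (0.74), of which 17 had been called against replicates 4 to 6. Sign changes in genes called in neither fit are not listed. The same-numbered block leaves these log2 fold changes as they are, and 18 of the 23 genes were called in at least 1 of both fits with it. No called gene that met the naming rule turned under the other 18 settings, but 39 of the 61 lost their call with all 7 libraries of 8C as controls. Against 8C -bFGF the 235 calls became 88 with no minimum mean, 608 with no minimum fold and 79 to 365 with 1 library left out. Against 8C -Pex the 430 calls became 1038 with no minimum fold and 271 to 477 with 1 library left out. Against 8C -GSK3i the 589 calls became 3234 with no minimum fold and 452 to 643 with 1 library left out.

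The replicate numbers were not shown to pair the libraries: deviations from the group means of 8C -EGF number n and 8C number n + 3 correlated at 0.199, -0.0175 and 0.214, and among 8C replicates 4 to 6, 8C -EGF replicate 2 correlated best with replicate 4, at 0.0441. Xist and Y-linked genes nevertheless follow the same order in both groups. With the replicate block 7 of the 61 called named genes lost their call, Olfm4, Defa3, Clec2h, Rbp2, Ces2c and Gde1 among them, and the counts were 376 against 8C, 280 against 8C -bFGF, 478 against 8C -Pex and 593 against 8C -GSK3i, and 93 (53.8% higher) against 8C replicates 1 to 3 paired by the same number, where correlations were -0.108, -0.364 and -0.344. TPM carries no depth, so how depth limits the low genes was not assessed.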
